A study of Mus musculus with 367 samples.

Results

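Described here are 10 genes that mark pericytes, the contractile cells wrapped around capillaries: Kcnj8, Abcc9, Higd1b, Cox4i2, Ndufa4l2, Mcam, Cspg4, Vtn, Gja4 and Ebf1. They were 10 of the 50600 genes in the expression matrices and were chosen by measured values, since earlier results of these data placed them in cells rich in Rgs5, a regulator of G-protein signalling abundant in pericytes. All 10 were found by their Ensembl identifiers. The cells came from excisional skin wounds on the back of Sm22-Cre;tdTomato mice of a mixed background. The mice were wounded at 3 to 8 weeks of age by the sample labels (the study's methods give a narrower range within it). In them, Cre under the promoter of Tagln (SM22, a smooth muscle gene) switches on the red protein tdTomato. Every cell, or a cell it descended from, had thus been through Tagln promoter activity at some time. Viable tdTomato-high cells of pooled wounds from 2 to 3 animals per time point were sorted and captured singly on C1 microfluidic chips at post-wounding days 12 (3 captures), 15 (2 captures) and 21 (2 captures). No unwounded or Cre-negative cells are analysed here, and although the study's wounding methods name animals as the biological replicates, no source used here ties a capture to an animal, so the spread between captures may be technical. The full-length cDNA of each cell was sequenced, and its expression is given as FPKM, fragments scaled to transcript length and to the total of the cell.

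Cells were sorted into kinds by 3 genes. Mural cells had at least 500 FPKM of Rgs5 and under 50 FPKM of Tyrobp, an adaptor protein of immune cells. Matrix cells had at least 1000 FPKM of Col1a1, the main collagen gene of fibroblasts, under 100 FPKM of Rgs5 and under 50 FPKM of Tyrobp, and myeloid cells had at least 500 FPKM of Tyrobp. The study itself names the Rgs5-positive cells fibroblasts, so "mural" stands here for the rule and not for a position on a vessel. Since the 10 genes were listed for their difference between mural and matrix cells, that difference is described without a test, and only the comparisons between days are tested.

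Pericytes and smooth muscle cells set the tone of small vessels partly through the ATP-sensitive potassium channel, which opens when cellular energy is low. Its pore is formed by Kir6.1, the product of Kcnj8, and its regulatory subunit SUR2 by Abcc9. Cox4i2, Ndufa4l2 and Higd1b encode small mitochondrial proteins whose relatives Cox4i1, Ndufa4 and Higd1a are used by most cells, and both Cox4i2 and Ndufa4l2 are known to respond to low oxygen in other tissues. Mcam (CD146) and Cspg4 (NG2) encode surface proteins used to sort pericytes, Vtn encodes vitronectin, a secreted ligand of integrins, Gja4 encodes the gap junction protein connexin 37, and Ebf1 encodes a transcription factor of stromal and B cells.

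The channel genes are neighbours. On GRCm38, by GENCODE release 21, Kcnj8 lies on chromosome 6 from 142564837 to 142571614 and Abcc9 from 142587862 to 142702315, both on the minus strand with 16247 bases between them. The sequences before the starts of the channel genes and of Gja4 are shown, since the channel genes share a locus and Gja4 was at 0 in every matrix cell. They come from RefSeq promoters on GRCm38.p6 and are written 5′ to 3′ along the gene, without bases inside a GENCODE transcript. Capitals mark the letters GCGTG (read as CACGC on the other strand), bound by hypoxia-inducible factors, and TGGGAA, bound by the Notch effector RBPJ. The Kcnj8 stretch is chr6:142571615-142571864, the Abcc9 stretch chr6:142702316-142702524 and the Gja4 stretch chr4:127314040-127314289, all on the minus strand.
Kcnj8: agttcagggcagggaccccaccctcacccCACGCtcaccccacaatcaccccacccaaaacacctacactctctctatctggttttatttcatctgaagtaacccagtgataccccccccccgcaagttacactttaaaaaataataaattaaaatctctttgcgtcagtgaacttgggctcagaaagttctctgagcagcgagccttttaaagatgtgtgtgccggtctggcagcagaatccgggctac
Abcc9: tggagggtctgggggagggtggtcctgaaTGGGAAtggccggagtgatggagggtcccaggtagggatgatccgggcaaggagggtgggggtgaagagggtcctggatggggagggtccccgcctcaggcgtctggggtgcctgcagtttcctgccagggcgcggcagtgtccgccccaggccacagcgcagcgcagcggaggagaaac
Gja4: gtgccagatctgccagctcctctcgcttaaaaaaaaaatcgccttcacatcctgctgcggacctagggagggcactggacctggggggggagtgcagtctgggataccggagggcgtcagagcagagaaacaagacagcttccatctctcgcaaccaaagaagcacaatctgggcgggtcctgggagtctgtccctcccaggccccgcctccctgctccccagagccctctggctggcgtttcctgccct

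Of the 10 genes, 7 had an entry among these promoters, and Higd1b, Cox4i2 and Ndufa4l2 had none. Both strands of the 250 bases before each RefSeq start, from which distances are counted, were searched for the hypoxia letters ACGTG and for GCGTG, for the RBPJ letters TGGGAA, and for the EBF motif. The EBF motif is a palindrome that begins with TCCC and, after any 2 bases, ends with GGGA, and its end can overlap the RBPJ letters. The letters ACGTG stood in 16.6% of all 32851 promoters, GCGTG in 28.2%, TGGGAA in 21.6% and the EBF motif in 0.779%. Kcnj8 held GCGTG once, 221 bases before the start, Abcc9 held TGGGAA once, 221 bases before its own start, and Vtn held GCGTG 48 and TGGGAA 236 bases before. The second Ebf1 entry held ACGTG once, GCGTG at 203 and 122 bases before the start, and TGGGAA once. Gja4, Mcam, Cspg4 and the first Ebf1 entry held none of these letters, and no member held the EBF motif in this window.

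The other members lie apart from each other. Higd1b is on chromosome 11 (102835849 to 102838040, plus strand), Vtn on chromosome 11 (78499091 to 78502324, plus) and Ebf1 on chromosome 11 (44617317 to 45008091, plus). Mcam and Cspg4 are on chromosome 9 (44134469 to 44142727 and 56865033 to 56899870, both plus), Cox4i2 is on chromosome 2 (152754173 to 152765037, plus), Ndufa4l2 on chromosome 10 (127514967 to 127517154, plus) and Gja4 on chromosome 4 (127311421 to 127314039, minus). No other annotated gene overlaps any of the 10 on either strand.

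Of 367 deposited cells, 292 passed the study's limits on depth, gene number and mitochondrial share, and 57 of these were mural, 198 matrix, 26 myeloid and 11 of no kind. The mural cells were 9, 7 and 14 in the day 12 captures, 18 and 1 at day 15 and 8 and 0 at day 21. Median estimated depth of mural cells ranged from 859184 to 2249694 fragments in the 5 captures with at least 3 of them. Rgs5, which chose them, ran from 610 to 19993.1 FPKM with a median of 6696.6, and the nearest cells on either side of the limit had 420 and 610 FPKM. All 10 markers of the mural list were found above 0 in mural cells, with a summed capture mean of 7552.4 to 9181.1 FPKM, most of it Rgs5 itself, against 74.8 to 132 FPKM in matrix cells. Among endothelial markers Cdh5, Tek and Cldn5 were at 0 in all 57 cells, and the other 7 were above 0 in some. Vwf was above 0 in 40 mural cells (mean 3.91 FPKM) and Pecam1 in 24 (0.649 FPKM), against 141 and 59 of 198 matrix cells. The sum of all 10 was 72.9 to 285 FPKM, led by Esam, against 1.08 to 8.52 FPKM in matrix cells. Of the 12 myeloid markers 5 were at 0 with a sum of 2.42 to 53.5 FPKM. The matrix list was not low: its 9 genes summed to 5183.8 to 20179.6 FPKM in mural and 22806.3 to 42978.4 FPKM in matrix cells, and 19 of 57 mural cells had at least 1000 FPKM of Col1a1.

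**Figure D1:**
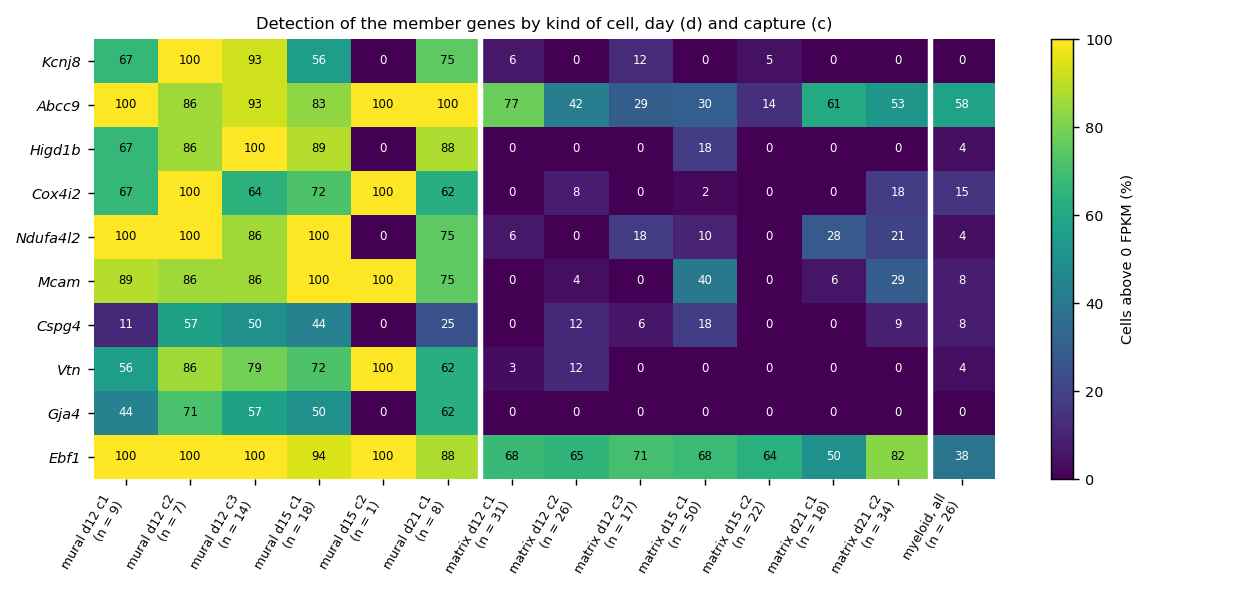
Percentage of cells with a value above 0 FPKM for each of the 10 genes (rows) in mural and matrix cells of each capture and in all 26 myeloid cells (columns, number of cells in brackets), with white lines between kinds. Gja4 was at 0 in every matrix and myeloid column, while Abcc9 and Ebf1 were above 0 in all of the matrix columns.

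Kcnj8, the pore of the channel, was above 0 in 42 of 57 mural cells (73.7%, exact 95% binomial interval 60.3 to 84.5) and in 5 of 198 matrix cells (2.53%, 0.825 to 5.79). Its mean over mural cells was 89.3, 175 and 339 FPKM in the day 12 captures, 132 FPKM in capture 1 of day 15 and 718 FPKM in capture 1 of day 21. The highest mean rested on 1 cell. That cell held 4529.5 FPKM, 78.9% of the sum of its 8 mural cells, whose median was 25.6 FPKM. Kcnj8 was at 0 in the matrix cells of 4 of 7 captures and at most 3.61 FPKM on average in the others, and it was at 0 in all 26 myeloid cells, so a share of at most 11.5% is allowed by that count. Only counting error is covered by such intervals and limits.

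Abcc9, the regulatory subunit, was seen in more mural cells at lower levels, in 52 of 57 cells (91.2%, 80.7 to 97.1). Its mural means were 16.2, 47.5 and 68.3 FPKM in the day 12 captures, 45.7 FPKM at day 15 and 13.9 FPKM at day 21. Its detection outside mural cells was broad and its level there very low. It was above 0 in 87 of 198 matrix cells (43.9%) with a median of 0.21 FPKM among these, and in 15 of 26 myeloid cells (57.7%) with a median of 0.34 FPKM. With a limit of 10 FPKM the shares were 52.6% of mural cells, 2.02% of matrix cells and 0 of the myeloid cells. The contrast with mural cells thus lay in the level more than in detection.

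The subunits were found together in 39 of 57 mural cells (68.4%), Kcnj8 alone in 3, Abcc9 alone in 13 and neither in 2. With separate shares of 73.7% and 91.2%, a large joint share follows without any link between the subunits. In matrix cells 4 of 198 held both. Where a cell counted only from 10 FPKM, 20 of 57 mural cells (35.1%) held both. The levels of the subunits were only loosely tied across mural cells, with a Spearman rho of 0.15 over all 57 cells, 0.55 in the 14 cells of capture 3 of day 12 and -0.02 in the 18 cells of day 15. The alternative subunits, Kcnj11 (Kir6.2) and Abcc8 (SUR1), known from insulin-secreting cells, were at 0 in all mural, matrix and myeloid cells, so at most 5.26% of mural and 1.52% of matrix cells could hold them by counting.

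**Figure D2:**
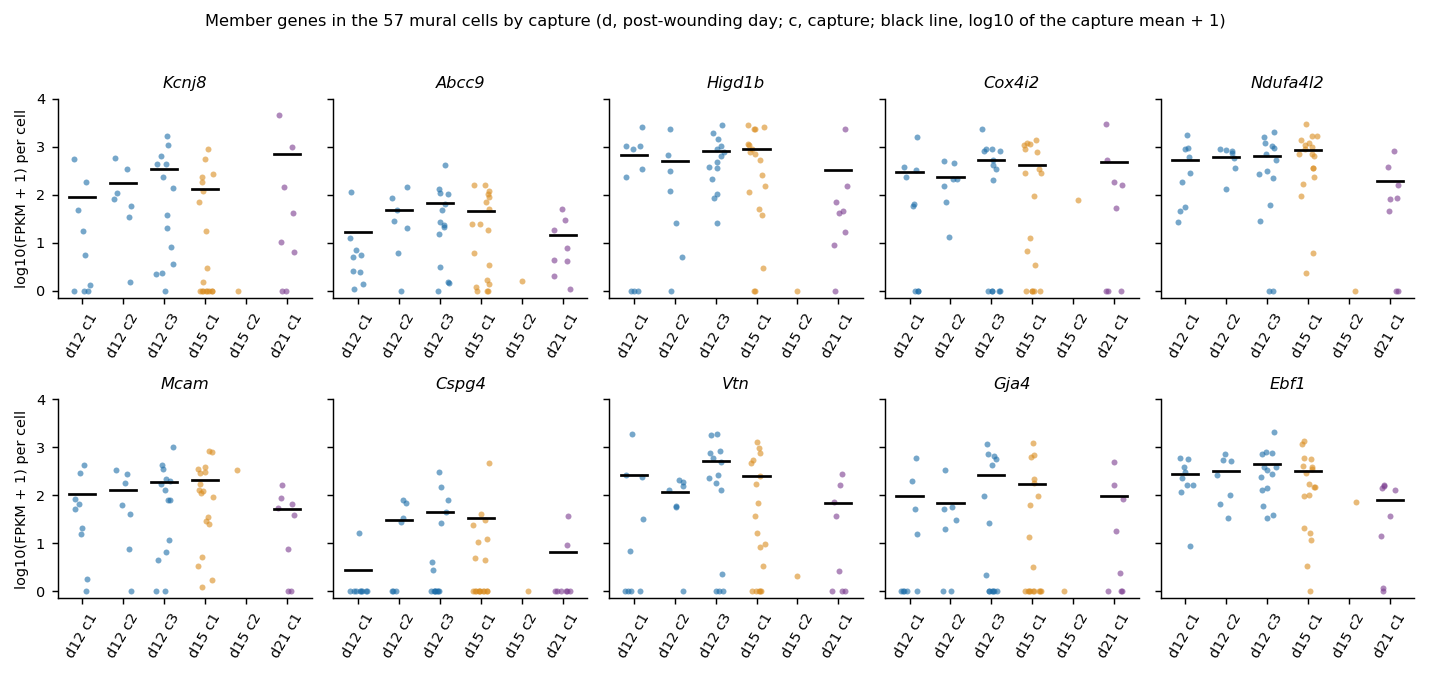
Level of each of the 10 genes in every mural cell (points, log10 of FPKM + 1) by post-wounding day and capture, with the capture mean as a black line where at least 3 cells were present. Cells at 0 and cells above 1000 FPKM occurred in the same capture for all genes but Abcc9 and Cspg4, and the single mural cell of day 15 capture 2 lay at or near 0 for 7 of the 10 genes.

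The mitochondrial members had the highest means of capture means of the 10 in mural cells, with 646 FPKM for Higd1b, 572 for Ndufa4l2 and 392 for Cox4i2, though Ebf1 was above Cox4i2 in capture 2 of day 12 and Kcnj8 above all of them at day 21. Higd1b, a HIG1 domain protein of the inner mitochondrial membrane, had mural means of 690, 507 and 817 FPKM in the day 12 captures, 885 FPKM at day 15 and 333 FPKM at day 21, of which 1 cell held 87.5%, and was above 0 in 49 of 57 mural cells (86.0%, 74.2 to 93.7). It was at 0 in every matrix cell of 6 captures. The exception was capture 1 of day 15, where 9 of 50 matrix cells were above 0, 2 of them at 10 FPKM or more, with a mean of 2.95 FPKM.

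Ndufa4l2, a relative of a complex IV subunit and known target of hypoxia-inducible factor, had mural means of 543, 630 and 639 FPKM at day 12, 850 FPKM at day 15 and 196 FPKM at day 21. It was above 0 in 52 of 57 mural cells (91.2%) and at 10 FPKM or more in 50. Outside mural cells it was the member with the most high values after Ebf1. It reached 10 FPKM in 15 of 198 matrix cells (7.58%), with up to 856 FPKM in a cell of day 12 capture 1, and its matrix means ran from 0 to 54.9 FPKM over the 7 captures.

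Cox4i2, an isoform of complex IV subunit 4, was above 0 in 41 of 57 mural cells (71.9%, 58.5 to 83), with means of 295, 230 and 522 FPKM at day 12, 423 FPKM at day 15 and 490 FPKM at day 21, of which 1 cell held 75.9%. Its capture means were the least spread of the 10 on the log scale, with a mean of 8.55 ± 0.51 for log2(mean FPKM + 1) (SD, n = 5 captures). In matrix cells it was above 0 in 9 of 198 (4.55%), and 1 cell of day 15 held all of the 317 FPKM found in that capture. A single myeloid cell of day 15 held 517 FPKM.

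Set against its everyday paralog, each mitochondrial member took a different share. Higd1b made up 93.0%, 87.9% and 90.1% of the sum of Higd1b and Higd1a in mural cells of the day 12 captures, 92.7% at day 15 and 90.0% at day 21 (90.7% ± 2.12, SD, n = 5 captures), and at most 5.41% in matrix cells. Ndufa4l2 made up 69.1% ± 17.6 of its sum with Ndufa4 in mural cells (range 49.3 to 93.8%) and at most 13.3% in matrix cells. Cox4i2 made up 30.2% ± 13.3 of its sum with Cox4i1 (range 20.5 to 50.9%), below Cox4i1 at days 12 and 15 and near it at day 21 (490 against 473 FPKM), and at most 0.991% in matrix cells. Higd1b exceeded Higd1a in 42 of 57 mural cells and Ndufa4l2 exceeded Ndufa4 in 41, but Cox4i2 exceeded Cox4i1 in 8. These shares include the members and are therefore given without a test.

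The paralogs themselves were present in both kinds. Cox4i1 was above 0 in 55 of 57 mural and 190 of 198 matrix cells, and Higd1a in 34 and 131. Ndufa4 was above 0 in 35 of 57 mural cells (61.4%, 47.6 to 74) and in 184 of 198 matrix cells (92.9%, 88.4 to 96.1), and at day 15 capture 1 in 5 of 18 mural and 42 of 50 matrix cells. Mural cells of that capture had fewer genes above 0 than its matrix cells (median 4239 against 5464), and the part of this in the Ndufa4 value was not tested. In the fit over 5 captures Ndufa4 was lower in mural cells by a log2 difference of -1.16 (SE 0.35, adjusted p = 0.16 by limma), Higd1a differed by -0.22 (SE 0.41) and Cox4i1 by 0.48 (SE 0.21), none past the threshold of 0.05. Higd2a, a further paralog, differed by -1.81 (SE 0.53, adjusted p = 0.137 by limma), and Higd1c was at 0 in all mural cells.

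**Figure D3:**
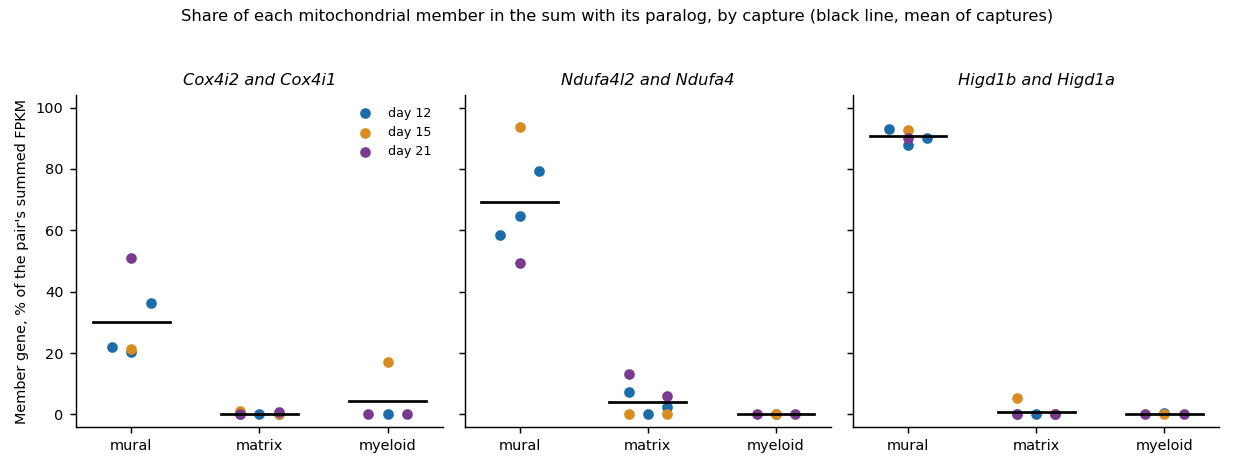
Share of Cox4i2, Ndufa4l2 and Higd1b in the summed FPKM of each with its paralog (percent), for the mean of mural, matrix and myeloid cells of every capture with at least 3 such cells (points, coloured by post-wounding day; black line, mean). In mural cells the Higd1b points lie between 87.9 and 93.0%, those of Ndufa4l2 between 49.3 and 93.8% and those of Cox4i2 between 20.5 and 50.9%, all above the matrix points of the same pair.

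Of the surface genes Mcam, an adhesion molecule of vessel walls, was widespread, in 51 of 57 mural cells (89.5%, 78.5 to 96.0) with means of 105, 128 and 192 FPKM at day 12, 205 FPKM at day 15 and 51.5 FPKM at day 21. In matrix cells it was above 0 in 32 of 198, of which 20 came from capture 1 of day 15 and 10 from capture 2 of day 21, a capture without a kept mural cell. Their values were mostly low. Only 6 matrix cells reached 10 FPKM, with a highest value of 172 FPKM.

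Cspg4, the NG2 proteoglycan often used as a pericyte mark, was the least detected of the 10, in 22 of 57 mural cells (38.6%, 26 to 52.4). Its means were 1.75, 29.6 and 43.1 FPKM at day 12, 33.2 FPKM at day 15 and 5.63 FPKM at day 21. A single cell gave the whole value in capture 1 of day 12, 79.5% of it at day 15 and 81.4% at day 21. The matrix means of Cspg4 ran from 0 to 9.21 FPKM, and the mural means of capture 1 of day 12 and of day 21 lay inside that range.

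Vtn, vitronectin, was above 0 in 41 of 57 mural cells (71.9%, 58.5 to 83), with means of 267, 114 and 514 FPKM at day 12, 253 FPKM at day 15 and 68.9 FPKM at day 21. It was above 0 in 4 of 198 matrix cells, all at day 12, with 220 FPKM in the highest, and was at 0 in all matrix cells of days 15 and 21.

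Gja4, connexin 37, was found in mural cells and in neither other named kind. It was at 0 in all 198 matrix cells, where a count of 0 leaves room for at most 1.52%, and in all 26 myeloid cells. In mural cells it was above 0 in 31 of 57 (54.4%, 40.7 to 67.6), with means of 96.6, 69.6 and 263 FPKM at day 12, 172 FPKM at day 15 and 96.1 FPKM at day 21. Mural cells were thus split, with a median of 2.21 FPKM over all and 95.9 FPKM among those above 0.

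Ebf1 was the opposite case, a gene of both kinds. It was above 0 in 55 of 57 mural cells (96.5%) and in 135 of 198 matrix cells (68.2%, 61.2 to 74.6), and at 10 FPKM or more in 91.2% and 36.4%. Its mural means were 282, 323 and 458 FPKM at day 12, 324 FPKM at day 15 and 79.9 FPKM at day 21, while its matrix means in these captures were 36.6, 47.7, 21.8, 43.1 and 81.7 FPKM. The mural mean was above the matrix mean at days 12 and 15 but not at day 21, where the values were nearly equal.

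Across the 5 captures with at least 3 cells of both kinds, 9 of the 10 genes had a higher mural than matrix mean in every capture, and Ebf1 in 4 of 5. Of 13823 genes tested, 4.73% did so, and nothing is read from the comparison since the list was made on this contrast. On the log2(mean FPKM + 1) scale the mural minus matrix difference was 8.86 for Higd1b, 7.69 for Cox4i2, 7.22 for Kcnj8, 6.97 for Gja4, 6.78 for Vtn, 6.02 for Ndufa4l2, 5.27 for Mcam, 4.50 for Abcc9, 2.66 for Cspg4 and 2.56 for Ebf1, with standard errors of 0.52 to 0.99. From Cox4i2 down to Mcam, neighbours in this order lay closer than the larger of their standard errors, as did Cspg4 and Ebf1. The matrix mean was 0 for Gja4 in all 5 captures, for Higd1b in 4 and for Kcnj8, Cox4i2 and Vtn in 3, so these differences depend on the pseudocount of 1 FPKM and are not bounds.

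Mural cells carried most of the genes at once. The median mural cell had 8 of the 10 above 0 (range 4 to 10), 29 of 57 had 8 or more and 13 had all 10. The median matrix cell had 1 (range 0 to 6), 162 of 198 had 2 or fewer, and no matrix cell had 8. The cells with the full set came from 4 captures, 3 and 4 cells from captures 2 and 3 of day 12, 5 from capture 1 of day 15 and 1 from capture 1 of day 21. The single mural cell of capture 2 of day 15, with 592328 estimated fragments, had 5 above 0, of which Mcam at 338, Cox4i2 at 78 and Ebf1 at 70.4 FPKM were above 10 FPKM.

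**Figure D4:**
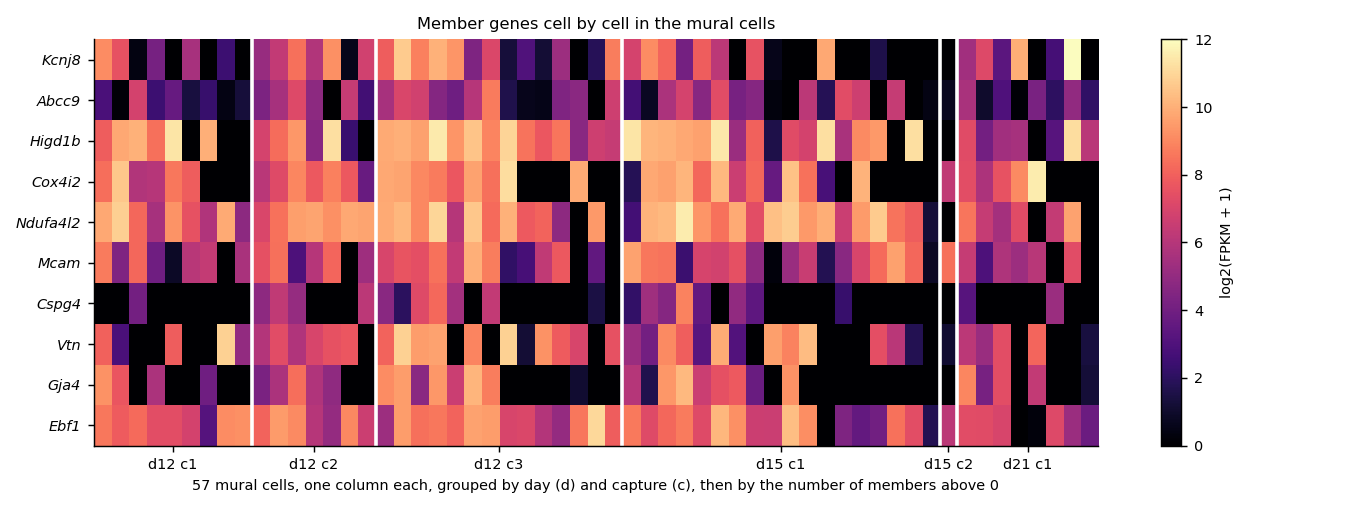
Level (log2 of FPKM + 1, colour) of the 10 genes in each of the 57 mural cells, ordered by capture and within a capture by the number of members above 0. Black cells at 0 were most frequent for Cspg4 (35 of 57 cells) and Gja4 (26 of 57), and Ebf1 formed a nearly unbroken row with 2 cells at 0.

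Within mural cells, levels of the genes were weakly and mostly positively related. Over the 45 pairs, Spearman's rho across the 57 cells ran from -0.10 to 0.58 with a median of 0.27. It was above 0 in 44 pairs and above 0 in both larger captures, with 14 and 18 cells, in 36. Pairs of other genes were not counted, so these counts have no background and are not read as a trait of the members. The highest pair was Cox4i2 and Gja4, with 0.58 over all cells, 0.52 in capture 3 of day 12 and 0.66 at day 15. Next came Cspg4 with Gja4 (0.42), Kcnj8 with Higd1b (0.42), and 4 pairs at 0.41, while Cspg4 with Vtn was lowest at -0.10. For Ndufa4l2 and Higd1b it was 0.84 in capture 3 of day 12 and 0.03 at day 15. Cells share their capture and the scaling to their own total. The correlation of a member with estimated depth was between -0.19 and 0.08. With the number of genes above 0 it ran from -0.23 for Ndufa4l2 to 0.27 for Kcnj8, and the part of this in the pairs was not tested. Rgs5, which selected the cells, was most related to Cox4i2 (0.49) and Vtn (0.44), and Acta2, smooth muscle actin, to Ndufa4l2 (0.47).

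Col1a1 was above 0 in all 57 mural cells, and in 19 of them it reached 1000 FPKM. In these 19 the median was 53 FPKM for Cox4i2, 223 for Ndufa4l2, 1.65 for Vtn and 0 for Gja4. In the other 38 the medians were 336, 704, 176 and 21.9 FPKM. Medians were also lower in the 19 cells for Kcnj8 (9.37 against 35.5 FPKM) and Abcc9 (4.47 against 21.9 FPKM). So were those of Mcam (39.1 against 119 FPKM) and Ebf1 (150 against 252 FPKM). Higd1b had medians of 260 and 350 FPKM and Cspg4 was at a median of 0 in both. Means of all 10 genes were lower in the 19 cells, but Spearman's rho with Col1a1 over the 57 cells lay between -0.25 and 0.05, with 0.03 for Kcnj8, 0.05 for Cspg4 and -0.09 for Abcc9, and detection differed little for Ndufa4l2 (18 of 19 against 34 of 38) and Kcnj8 (14 of 19 against 28 of 38). The groups were formed on a measured gene and are not replicates, so no test is given. In the capture of day 21 the median Col1a1 of mural cells was 6111 FPKM, against 289 to 1052.3 FPKM in the other 4 captures.

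Low values in matrix cells were also seen in captures nearly without mural cells. Capture 2 of days 15 and 21 together held 56 matrix cells and 1 kept mural cell. Abcc9 was above 0 in 37.5% of these matrix cells against 46.5% of the 142 of the other captures, Ndufa4l2 in 12.5% against 10.6%, Mcam in 17.9% against 15.5% and Cox4i2 in 10.7% against 2.11%. Higd1b and Vtn were at 0 in the 56 cells, which allows up to 5.36%, against 6.34% and 2.82%. All 9 matrix cells with Higd1b came from capture 1 of day 15, and all 4 with Vtn from day 12. The 56 cells were of days 15 and 21 only and the 142 included all of day 12. Day and capture thus cannot be told apart from the presence of mural cells. Rgs5 itself was above 0 in 33.9% of the 56 and 79.6% of the 142 matrix cells, but not evenly by capture. Among the captures of the 142 it was 30 of 31, 8 of 26 and 17 of 17 cells at day 12. It was 40 of 50 at day 15 and 18 of 18 at day 21. In capture 2 of day 15 it was 4 of 22, and in capture 2 of day 21 it was 15 of 34. What these low Rgs5 values have to do with the members' values was not tested.

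Between days, none of the 10 genes passed the test in mural cells. Captures with at least 3 mural cells were compared, 3 of day 12 against 1 of day 15 and 1 of day 21 together, with limma on log2(mean FPKM + 1). All 10 passed the filter of 1 FPKM, 0 of 10 were called, and 0 of 12704 genes were called (background 0%), with 525 genes and 0 of the 10 at an unadjusted p under 0.05. The largest differences, days 15 and 21 minus day 12, were -1.10 for Ebf1 (SE 0.68, adjusted p = 0.915), -0.91 for Vtn (SE 0.81, adjusted p = 0.915) and 0.82 for Kcnj8 (SE 0.82, adjusted p = 0.915) by limma. The others lay between -0.56 and 0.47, and the standard errors of the 10 were 0.52 to 1.45. The median of the 10 was -0.34 and that of all genes -0.13.

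The later captures pointed different ways. The mural mean of day 21 capture 1 was below all day 12 captures for 6 of the 10 genes, Abcc9, Higd1b, Ndufa4l2, Mcam, Vtn and Ebf1, against 27.1% of all tested genes, and above them for 1, Kcnj8, against 21.8%. That of day 15 capture 1 was below all 3 for 0 of the 10 genes, against 21.0%, and above them for 3 of the 10, Higd1b, Ndufa4l2 and Mcam, against 25.7%. Without the day 21 capture the difference turned positive for Abcc9 (0.27), Higd1b (0.43), Ndufa4l2 (0.50), Mcam (0.58), Vtn (0.02) and Cspg4 (1.14) and negative for Kcnj8 (-0.40). Ebf1, Cox4i2 and Gja4 kept their signs there. The signs of the genes that turned rest on the 8 mural cells of that capture. These are also the mural cells with the most Col1a1, and the part of that in their values was not tested.

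**Figure D5:**
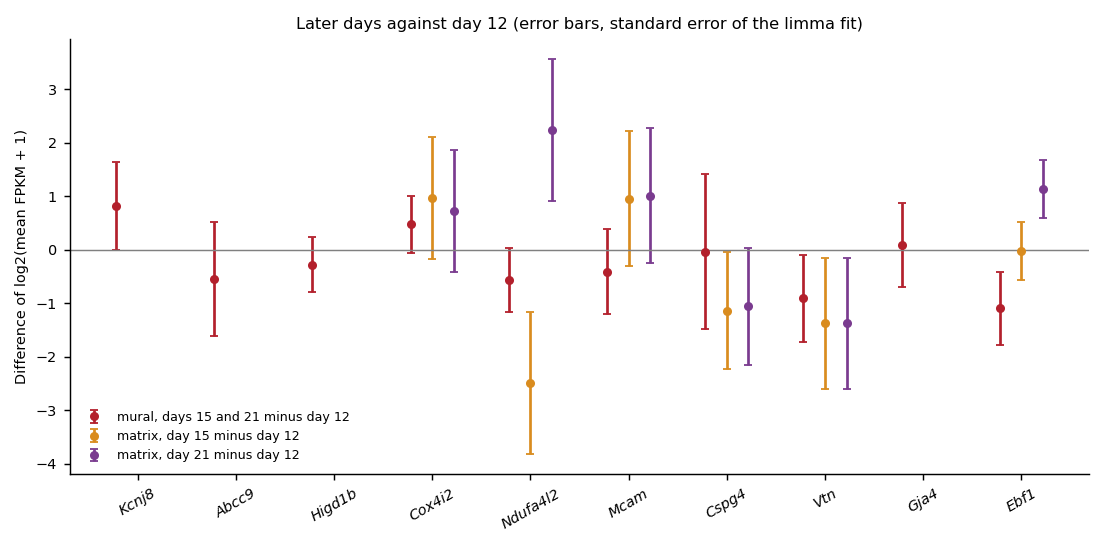
Difference of log2(mean FPKM + 1) between later days and day 12 for each gene (points) with the standard error of the limma fit (bars), in mural cells (days 15 and 21 together) and in matrix cells (day 15 and day 21). Genes below the filter in matrix cells have no matrix points, and no point passed the adjusted threshold. Ndufa4l2 in matrix cells spans the widest range, from -2.49 at day 15 to 2.23 at day 21.

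In matrix cells 6 of the 10 genes passed the filter, and Kcnj8, Abcc9, Higd1b and Gja4 did not. At day 15 against day 12, 0 of the 6 and 0 of 13552 genes were called by limma (background 0%), with 791 genes at an unadjusted p under 0.05. At day 21 against day 12, 0 of the 6 and 1 of 13552 genes were called (background 0.00738%), the predicted gene Gm2564 with a difference of 7.30 (SE 0.83, adjusted p = 0.0469 by limma), named after its value was seen. That call was lost when any 1 capture was left out, and with TPM, a pseudocount of 0.1, no filter or the replicate block. Ebf1, with matrix means of 36.6, 47.7 and 21.8 FPKM at day 12 and 81.7 and 69.8 FPKM at day 21, differed by 1.14 (SE 0.54, adjusted p = 0.719 by limma). Ndufa4l2 had matrix means of 35.9, 0 and 8.63 FPKM at day 12, 0.587 and 0 FPKM at day 15 and 54.9 and 18.6 FPKM at day 21. Its difference was -2.49 at day 15 (SE 1.33, adjusted p = 0.871 by limma) and 2.23 at day 21 (SE 1.33, adjusted p = 0.763 by limma), with groups that overlapped in both comparisons. Few cells carry these means, with 5 and 7 matrix cells above 0 in the day 21 captures. In none of the gene lists compared below was a gene called between days, in mural or in matrix cells.

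Genes of the same pathways were then compared between mural and matrix cells, leaving out the 10 genes and those of the cell rule. Of 13823 genes, 236 were called by limma (1.71%), 131 higher (0.948%) and 105 lower (0.760%) in mural cells. The kinds were separated by 3 genes of the same cells, so these calls describe how repeatable a difference was over 5 captures and are no independent test. The count of 236 was 102 without capture 1 or 3 of day 12 or capture 1 of day 15, 139 without capture 2 of day 12, 19 without the filter on low values and 657 with the mean of logs per cell. Of 18 tested genes of the hypoxia list 1 was higher, Epas1 (HIF-2α), and the median difference was -0.03 against -0.22 for all genes. An unadjusted p under 0.05 by limma was found for 5 of the 18, against 1976 of 13823 genes. Epas1 differed by 5.98 (SE 0.63, adjusted p = 0.00149), with mural capture means of 52.3 to 185 FPKM and matrix means of 0.0312 to 1.63 FPKM. Ankrd37 (3.85, adjusted p = 0.0719 by limma), Pdk1 (-2.53, adjusted p = 0.213) and Hilpda (1.62, adjusted p = 0.281) were the other large differences and were not called, and Hif1a differed by -0.36 (SE 0.57).

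Complex IV, in which Cox4i2 sits, showed no call among 13 tested genes, with a median difference of 0.10 and the largest at 1.63 for Cox6b2 (SE 0.72) and -1.16 for Ndufa4. Of 5 further potassium channel genes 1 was higher, Kcnmb1, the β1 subunit of the calcium-activated channel of smooth muscle (3.87, SE 0.82, adjusted p = 0.0486 by limma), on 14 of 57 mural and 12 of 198 matrix cells. Among connexins only Gja1 and Gjc1 passed the filter. Gjc1, connexin 45, was higher (3.04, SE 0.44, adjusted p = 0.0079 by limma), and Gja1, connexin 43, differed the other way (-2.75, SE 0.63, adjusted p = 0.0617). Gja1 was above 0 in 193 of 198 matrix cells and in 44 of 57 mural cells.

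Of 14 transcription factors tested 1 was higher, Nr2f2, a nuclear receptor of veins and stroma (4.63, SE 0.45, adjusted p = 0.00102 by limma). In this list of EBF family and mural factors 12 differences were above 0, with a median of 1.7 against -0.22 for all genes. An unadjusted p under 0.05 by limma was found for 10 of them, against 1976 of 13823 genes. The factors were listed as mural with earlier results of these data known, and Foxs1 and Ebf2 passed the filter only through mural cells. Nothing is thus read from this lean. Heyl (3.37, adjusted p = 0.128 by limma) and Foxs1 (3.26, adjusted p = 0.1 by limma) were not called. Of the other EBF genes Ebf3 differed by -0.09 (SE 0.71) and Ebf4 by -1.59 (SE 0.67), neither called. Ebf2 differed by 3.25 (SE 0.71, adjusted p = 0.053) with 37 of 57 mural and 19 of 198 matrix cells above 0, and was not called. None of 11 integrin, urokinase and laminin genes tied to vitronectin or MCAM was called, with Plaur at -2.15 (SE 0.72) and Lamc1 at 1.42 (SE 0.47) the largest. Of 19 other pericyte genes 7 were higher, among them Gucy1a1 (6.55), Rgs4 (5.73), Gucy1b1 (5.02) and Ednrb (5.01), and 2 were lower, Aspn (-1.12) and Postn (-1.45). Of 14 contractile genes 6 were higher, led by Synpo2 (5.39) and Des (4.30). Des is in both lists and is counted among the 7 pericyte genes as well. Of 4 tested genes of the endothelial list 1 was higher, Esam, an adhesion protein (7.07, SE 0.62). All 4 differences were above 0, with a median of 2.14. Esam and Emcn passed the filter only through mural cells, with 1 of 198 matrix cells above 0 each, so nothing is read from these signs. Emcn (2.48, SE 0.78, adjusted p = 0.175 by limma) was not called. It was above 0 in 5 mural cells, and Egfl7 in 2. Cdh5, Tek and Cldn5 stayed at 0 in mural cells.

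The genes most like each member over all 292 kept cells, by Pearson's r of log2(FPKM + 1) among 15326 genes above 0 in at least 5% of cells are given as the first 3 for each. Rgs5 defines the mural cells and the members were listed for their level in Rgs5-rich cells, so its place among them was fixed by that choice. It stood among the first 3 for Kcnj8 (0.64), Abcc9 (0.68), Higd1b (0.82), Cox4i2 (0.73), Ndufa4l2 (0.79), Mcam (0.74), Vtn (0.74), Gja4 (0.63) and Ebf1 (0.51). Sparcl1 came second for Higd1b (0.77), Ndufa4l2 (0.74) and Mcam (0.70), and Gucy1a1, a subunit of the nitric oxide receptor, second for Abcc9 (0.66) and Cox4i2 (0.71). Kcnj8 was led by Rasgrp2 (0.68), Gja4 by Ano1 (0.63), a calcium-activated chloride channel, and Cspg4 by Rasl12 (0.55), Crip2 (0.47) and Rgs16 (0.45). Epas1 came after Gucy1a1 for Abcc9 (0.66), as did Trarg1 for Cox4i2 (0.69), Atp1b2 second for Vtn (0.70) and Notch3 stood after Sparcl1 for Ndufa4l2 (0.71) and second for Ebf1 (0.49). These correlations are a description across cells that share captures and kinds, with the mural cells among them.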

How the data were processed

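The authors aligned paired-end reads with Bowtie 1.0.0 to mm10 with GENCODE mouse release 13, quantified them with RSEM and deposited FPKM per gene and cell. The FPKM hold neither counts nor totals. Symbols and positions came from GENCODE release 21, which held 50376 of 50600 identifiers. Fragments per cell were estimated from the steps between FPKM values of 9426 genes with 1 transcript, with an assumed fragment length of 300 bp. Cells needed the study's minimum of aligned reads, at most 11000 genes above 0 and no more than 15% of their FPKM from mitochondrial transcripts, which left out 75. Doublet wells had been removed by the authors by microscopy.

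The 10 genes, the gene lists and the rule were chosen with earlier results of these data known. The capture was the replicate. Means of at least 3 cells of a kind (at least 1 for matrix cells between days) were compared as log2(mean FPKM + 1) over genes averaging 1 FPKM or more, by limma 3.58.1 in R 4.3.3, a variance trend, two-sided tests and Benjamini-Hochberg adjustment over all genes at 0.05. The mural against matrix fit had the capture as a block. The script was tested on simulated data. Intervals of shares are exact binomial (95%), and a count of 0 allows 3 cells of the total. Named were all 10 genes, up to 4 genes of each list by the size of their difference, their paralogs and the 3 genes most correlated with each member. A few more genes of the lists, and Esam, Emcn, Vwf and Pecam1, were added once their values had been seen. Alternatives were the pseudocount, low-value filter, TPM scaling, all deposited cells, the mean of logs, no variance trend, other Rgs5 limits, at least 1 mural cell, detection limits, the block and each capture left out. Python 3.11.15, numpy 2.4.6, pandas 2.3.3, scipy 1.17.1 and matplotlib 3.10.9 were used.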

Additional observations from a re-analysis of the deposited data

Results flagged for a closer look

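Cells outside the main comparisons also held these genes. In 10 cells that met the mural rule but failed the limits on cells, detection was above the 30% that a count of 0 allows for Ndufa4l2 and Ebf1 (60% each), Abcc9 (50%) and Kcnj8, Higd1b, Mcam and Gja4 (40% each). In the 11 kept cells of no kind detection was above the limit of 27.3% for Mcam (63.6%), Cspg4 (54.5%), Ebf1 (45.5%) and Higd1b (36.4%), with Ebf1 again below its matrix share. Gja4 and Vtn did not pass that limit but were above 0 in 2 of the 11 cells each, with up to 739 and 60.4 FPKM. Of these 11 cells, 5 had Rgs5 of at least 100 FPKM, and the highest had 420 FPKM.

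Ebf1 stood out because its mural minus matrix difference was above 0 in all day 12 captures (2.91, 2.73 and 4.33 on the log2 scale) and below 0 in the only day 21 capture with both kinds (-0.03). The difference between the days was not tested.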

How the results depend on the processing

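The counts of called genes moved with the settings. Between mural and matrix cells they were 19 without the low-value filter, 657 with the mean of logs, 90 without the variance trend, 119 with at least 1 mural cell and 102 to 228 without a capture, against 236. It was 102 without PWD12 capture 1, PWD12 capture 3 or PWD15 capture 1 and 139 without PWD12 capture 2. The mean of logs called 28 genes in matrix cells at day 15 and 70 at day 21. The single call at day 21 was lost, with 0 genes, with a pseudocount of 0.1, no low-value filter, TPM, the replicate block or any capture left out. Mural cells with Kcnj8 and Abcc9 both present were 68.4%, 52.6% from 1 FPKM, 35.1% from 10 FPKM and 62.8 to 76.9% without a capture. No member was called between days under any setting, and the cause of these moves was not tested.

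Signs of uncalled mural differences between days turned for Kcnj8 with the mean of logs (-0.73), at least 1 mural cell (-1.94) and without PWD21 capture 1 (-0.40), and without that capture also for Abcc9 (0.27), Higd1b (0.43), Ndufa4l2 (0.50), Mcam (0.58), Vtn (0.02) and Cspg4 (1.14). Cox4i2 turned with the mean of logs (-0.80) and at least 1 mural cell (-0.37), Mcam with at least 1 mural cell (0.16), Gja4 with the mean of logs (-0.30), at least 1 mural cell (-2.25) and without PWD12 capture 1 (-0.08), PWD12 capture 2 (-0.31) or PWD15 capture 1 (-0.33). Cspg4 turned with a pseudocount of 0.1 (0.05), TPM (0.11), all deposited cells (1.14) and without PWD12 capture 2 (0.45) or 3 (0.71). In matrix cells Cox4i2 turned at day 15 with the mean of logs (-0.03) and at day 21 without PWD21 capture 2 (-0.47), Mcam without PWD15 capture 1 (-0.69) and, at day 21, without PWD21 capture 1 (-0.32), and Ebf1 at day 15 with all deposited cells (0.17) and without PWD12 capture 1 (0.03), PWD12 capture 2 (0.21) or PWD15 capture 2 (0.34). Over the captures left out, the mural day differences ranged from -0.40 to 2.03 for Kcnj8, -1.38 to 0.27 for Abcc9, -0.98 to 0.43 for Higd1b, -1.61 to 0.50 for Ndufa4l2, -1.40 to 0.58 for Mcam, -1.29 to 1.14 for Cspg4, -1.84 to 0.02 for Vtn and -0.33 to 0.64 for Gja4, and the matrix ones from -0.69 to 2.59 for Mcam and -0.41 to 0.34 for Ebf1 at day 15 and from -0.47 to 1.90 for Cox4i2 and -0.32 to 2.35 for Mcam at day 21.

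Captures of the same number did not deviate together (correlations of -0.00685 to 0.025), so they were treated as unpaired. With the replicate block 0 genes were called in mural cells and in matrix cells at days 15 and 21, and the mural differences of Abcc9 (0.62) and Cspg4 (2.45) turned. Without the capture as a block the mural against matrix fit called 251 genes. A capture left alone in its day was assumed to vary like the others. With 5 captures and 57 mural cells, and with 1 cell holding most of some capture means, the precision of the day comparisons was low.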
